A study of Mus musculus with 8 samples.

Results

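The collagen genes are the 44 of 26711 features in the deposited table whose symbol has the form Col, a number, the letter a and a number, so that every annotated alpha chain enters and no other matrix gene does. They were sorted by the structure of the protein into 11 fibrillar chains, 6 chains of the basement membrane network (type IV), 3 short-chain network collagens, 9 fibril-associated collagens (FACIT), 6 beaded-filament chains (type VI), 4 transmembrane collagens, 2 multiplexins and 3 others. Their level was followed through neurons, glia and vascular cells of the mouse primary visual cortex (V1) and compared between rearing conditions and between astrocyte genotypes.

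Collagens are secreted or membrane-bound matrix proteins whose chains wind around each other into a rod, and each structural class builds a different scaffold. Fibrillar collagens form the fibrils of meninges and of the vessel adventitia, type IV collagens form the basement membrane around capillaries and under the pia, and FACIT and transmembrane collagens sit on fibrils or on cell surfaces. Neurons of the brain also transcribe some of them, and collagen XIX is known for its part in the formation of inhibitory synapses.

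Single-nucleus RNA-seq was performed on V1 taken at postnatal day 21 from GRfl/fl mice, which carry a floxed Nr3c1, the gene of the glucocorticoid receptor (GR), and all animals received an AAV2/5 at birth in which the astrocyte promoter GfaABC1D drives the transgene. GR-KO mice received Cre together with a membrane EGFP (EGFP-CAAX) and GR-Con mice received an inactive ΔCre with the same EGFP, so the controls also carried the floxed alleles, the virus and EGFP. Mice of each genotype were reared normally (NR) or in the dark (DR), which gave 4 groups of 2 libraries, 1 from a male and 1 from a female animal in each. Nuclei were sorted by the DNA dye DRAQ5 per the labels, and the study's methods give the gate for this assay as positive for DRAQ5 and negative for GFP. How a GFP-negative gate bears on astrocytes that carry the vector was not tested. Unique molecular identifiers (UMIs) were summed here per library and deposited cell type.

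The 8 libraries held 102330 nuclei of 20 types, with 9517 to 15161 nuclei and 168632129 to 288774016 UMIs each. Of 31 marker genes 30 were highest in the type they mark, or in any type of the class for excitatory and inhibitory neuron markers. The exception was Slc47a1, a marker of vascular and leptomeningeal cells (VLMC) whose mean of 2.11 CPM in chandelier cells came from 1 UMI in 1 library. These genes did not check the layer types of neurons. Among layer markers, Fezf2, fixed for L5PT neurons, was higher in L5NP neurons (63.9 to 81.1 CPM over libraries) than in L5PT neurons (45.7 to 55.7). Cre UMIs were 0 in every GR-Con library and ran from 190 to 1054 in GR-KO libraries. Nr3c1 in astrocytes was 207 to 263 UMIs per 1000000 (CPM) in GR-Con and 268 to 284 in GR-KO libraries, but the counts do not separate the floxed part of the gene, so this level does not check the deletion. Median UMIs per nucleus were 22828 and 29223 in the NR GR-KO libraries (male, female) and 14861 to 20161 in the others, so this depth moved with genotype in NR and with rearing in GR-KO, and its part in those comparisons was not tested. The DR GR-Con female library stood apart in having only 3 VLMC and 5 endothelial nuclei. It held 1 smooth muscle or pericyte nucleus and NR GR-Con male 7, microglia numbered 2 in NR GR-Con male and 4 each in NR GR-KO male and DR GR-Con female, and 1220 barcodes occurred in more than 1 library. Libraries with fewer than 10 nuclei of a type were left out for that type, and fewer cells of a kind within a type and less RNA per nucleus cannot be told apart in such sums.

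The basement membrane chains open the account because their genes lie head to head. Col4a1 and Col4a2 (chromosome 8, starts overlapping by 22 bases), Col4a4 and Col4a3 (chromosome 1, 71 bases between the starts) and Col4a6 and Col4a5 (chromosome X, 1308 bases between the starts) run in opposite directions from a shared stretch. The bases between the annotated starts of Col4a4 and Col4a3 are given because this is the whole of the DNA that separates a pair, read on the Col4a4 strand of RefSeq GRCm38.p6 (chr1:82586850-82586920), with none of the motifs searched below and so no capitals.
Col4a4 to Col4a3: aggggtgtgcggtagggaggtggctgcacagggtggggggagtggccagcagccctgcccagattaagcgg
Its GC content was 69%.

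Col4a1 and Col4a2, the chains of the ordinary capillary basement membrane, were highest in endothelial cells, where CPM per library had a lowest value of 202, a median of 265 and a highest value of 362 for Col4a1 and 205, 266 and 285 for Col4a2 (n = 7 libraries). Smooth muscle cells and pericytes (SMC-Peri) followed with means of 232 ± 134 and 180 ± 92.7 CPM (SD, n = 6), and the libraries of these 2 types overlapped for both genes. Both genes were also detected in neurons, Col4a1 at 64.8 ± 9.39 CPM in L2/3 neurons, and oligodendrocytes held the lowest mean of Col4a1 at 3.79 CPM. Across the 20 types, which share the same libraries, the means of the pair had a Spearman rho of 0.94, and the ratio of Col4a1 to Col4a2 ran from 0.46 to 1.32 over the 18 types in which both reached 5 CPM.

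Col4a5 and Col4a6 were VLMC genes. VLMC are the fibroblast-like cells of the pia and of larger vessels, and Col4a5 held 153, 272 and 519 CPM there (lowest, median and highest, n = 7) against 48.0 ± 7.86 CPM (n = 8) in astrocytes, whose libraries did not reach into the VLMC range. Col4a6 held 119, 371 and 595 CPM in VLMC and 9.84 ± 11.1 CPM (n = 6) in SMC-Peri, and VLMC accounted for 93.3% of the sum of its means over all types. The 2 genes had a rho of 0.88 over the 20 types, with a ratio of Col4a6 to Col4a5 between 0.16 and 1.09 in the 3 types with both at 5 CPM.

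Col4a3 and Col4a4, the chains best known from the glomerular basement membrane, stayed below 50 CPM and parted in their types. Col4a3 was highest in SMC-Peri at 20.8 ± 14.8 CPM (n = 6), whose libraries overlapped with those of endothelial cells. Col4a4 was highest in Lamp5 interneurons at 19.9 ± 4.36 CPM (n = 8), where Col4a3 had 0.161 ± 0.252 CPM. Their rho over the types was 0.69, and only 1 type held both at 5 CPM or more.

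Over all members, 24 reached a mean of 50 CPM in at least 1 type, 13 stayed between 5 and 50 CPM, and 7 (Col2a1, Col6a4, Col6a5, Col6a6, Col8a2, Col10a1 and Col17a1) stayed under 5 CPM everywhere, Col6a4 narrowly, at 4.94 CPM in L2/3 neurons (5.06 without nuclei that held Tshz2). Of the 24, 11 were highest in a vascular type, 10 in a neuron type and 3 in a glial type. Over all 44 members, 16 were highest in VLMC, and ranking by the median over libraries in place of the mean gave the same top type for 42. Cell types were clustered on these nuclei, so differences between types are described without a test.

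**Figure D1:**
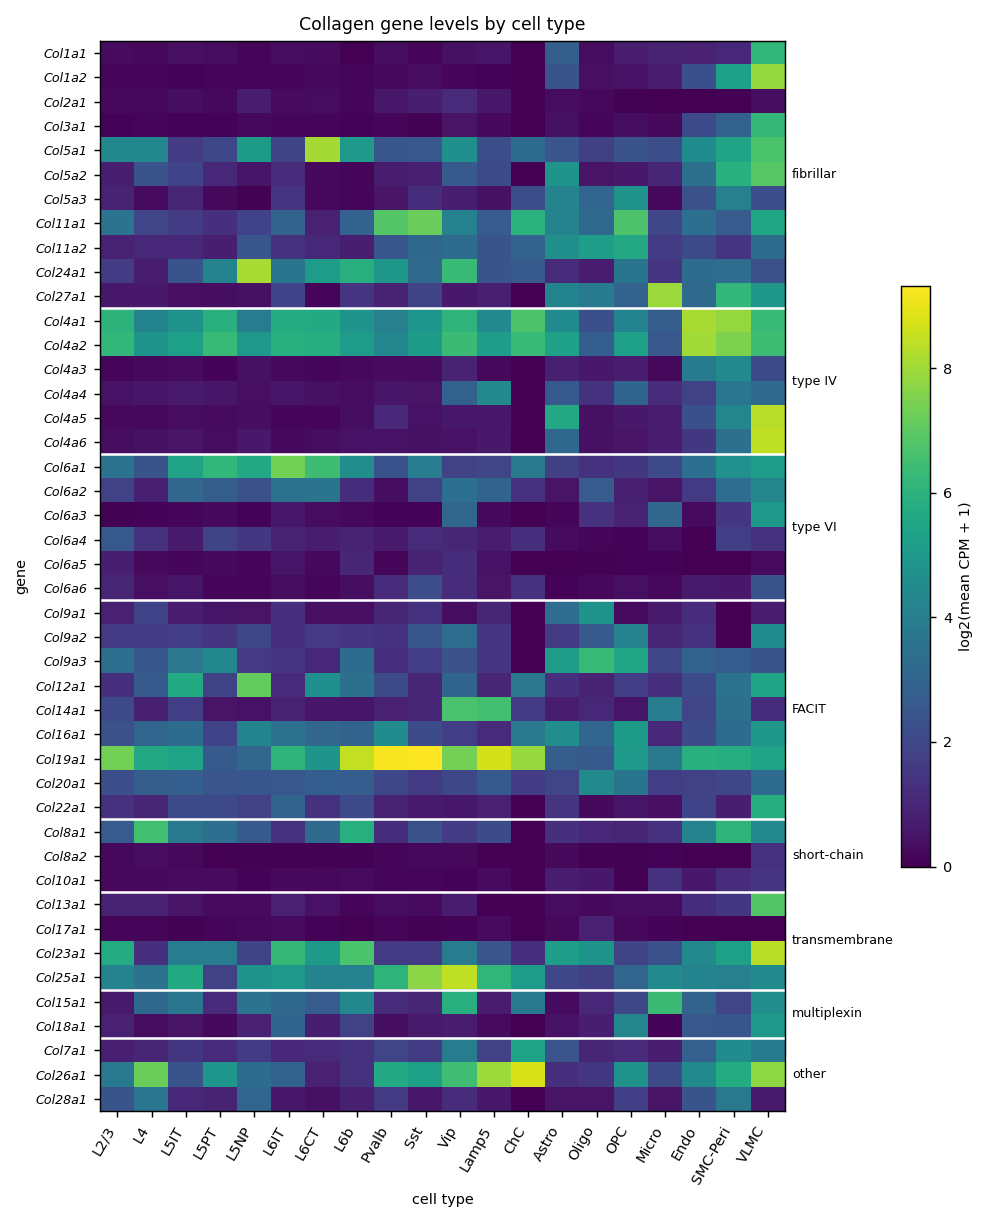
Heatmap of the mean level of the 44 collagen genes (rows, by structural class) in the 20 cell types (columns), as log2(mean CPM + 1) over the libraries with at least 10 nuclei of the type. The VLMC column holds the most strong rows, with Col1a2 at 231 and Col4a6 at 345 CPM, while the Col19a1 row is strong across interneurons, with 643 CPM in Sst and 603 in Pvalb cells.

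Summed over the members, VLMC held 2583 CPM (1550 to 3986 over 7 libraries), Sst neurons 1178 (970 to 1303, n = 8), Vip neurons 1126 (792 to 1432, n = 8) and oligodendrocytes, the type with the least, 273 (222 to 299, n = 8). VLMC held 30 members at 5 CPM or more, and astrocytes held 15 members at that level and none at 50 CPM.

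Among fibrillar collagens, the classical chains were VLMC genes. Col1a1 and Col1a2, the chains of type I collagen, held 34.0, 70.1 and 121 CPM and 117, 246 and 433 CPM there (lowest, median and highest, n = 7), and 85.1% and 82.2% of the sum of their means over the types fell in VLMC. Astrocytes were a distant next type for Col1a1 at 6.13 ± 1.43 CPM (n = 8). For Col1a2 the next type was SMC-Peri at 39.2 ± 25.7 CPM, without overlap with VLMC, and astrocytes held 4.36 ± 2.05 CPM. Col3a1, the type III chain that accompanies type I in vessels, held 73.1 ± 27.0 CPM in VLMC (n = 7), with no overlap with the 6.48 ± 6.35 CPM of SMC-Peri. Set side by side per kilobase of gene body, VLMC held 6.29 CPM per kb of Col1a2, 4.22 of Col1a1 and 1.92 of Col3a1. Whether counts in this assay grow with gene length was not tested.

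The type V and type XI chains, which set the diameter of fibrils in other tissues, were spread over several kinds of cells. Col5a1 was highest in L6CT neurons, the corticothalamic cells of layer 6, with 179, 259 and 392 CPM (n = 8) against 102 ± 47.7 CPM in VLMC (n = 7), and the libraries of the 2 types did not overlap. Layer neighbours held little of it, 2.79 ± 1.58 CPM in L6IT and 32.0 ± 15.7 CPM in L6b neurons. Col5a2 was highest in VLMC at 118 ± 47.3 CPM, and Col5a3 in oligodendrocyte precursors (OPC) at 26.3 ± 4.34 CPM, with libraries that overlapped those of astrocytes at 17 ± 10.2 CPM. These means pool the genotypes, and in NR GR-Con, where OPC held 27.1 and 24.6 CPM, astrocytes held 27.7 and 29.7. Col11a1 was a gene of interneurons and precursors, with means of 146 ± 28.2 CPM in Sst, 113 ± 22.6 in Pvalb and 105 ± 12.8 in OPC (n = 8 each) and 0.812 CPM in L6CT neurons.

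The 2 fibrillar collagens that belong to neither group, Col24a1 and Col27a1, marked opposite classes of cells. Col24a1 was highest in L5NP neurons, the near-projecting cells of layer 5, at 274 ± 22.8 CPM (233 to 309, n = 8), and next in Vip neurons at 76.8 ± 27.1 CPM, with no overlap. Its annotation shares a strand and bases with D530037P16Rik, as that of Col26a1 does with Gm20485, so counts of these 2 members are less certain. Col27a1 was highest in microglia at 241 ± 16.6 CPM (213 to 259, n = 5), clear of the 71.7 ± 28.6 CPM of SMC-Peri.

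Of the FACIT collagens, Col19a1 had the most UMIs of any member, 233853, and its mean over all nuclei of a type was 5 CPM or more in all 20 types, although that of L5PT neurons, 5.17 CPM, became 3.76 without nuclei that held Tshz2 (an alternative described below). It held 535, 646 and 717 CPM in Sst, 531, 605 and 673 in Pvalb (lowest, median and highest, n = 8), 421 ± 25.2 in Lamp5 and 351 ± 82.5 in L6b neurons, and the Sst and Pvalb libraries overlapped. Oligodendrocytes, at 5.03 ± 2.33 CPM, and L5PT neurons held the least, with overlapping libraries. Summed excitatory neuron markers averaged 36.4 CPM in oligodendrocytes, 251 in endothelial cells, 204 in VLMC and 368 in SMC-Peri (117 to 538, n = 6). In L2/3 neurons they averaged 583 and in L5PT neurons 315 CPM. The part of neuronal RNA in the levels of glial or vascular nuclei was not tested. Col12a1, a chain found on fibrils of tendon and dermis, was highest in L5NP neurons at 138 ± 21 CPM, with L5IT neurons next at 50.7 ± 14.1 CPM and no overlap. Col14a1, a related fibril-bound chain, was shared by Vip (100 ± 36.9) and Lamp5 neurons (90.8 ± 19.5 CPM). Among the type IX chains, Col9a3 was highest in oligodendrocytes at 78.4 ± 12.7 CPM and Col9a1 likewise at 26.4 ± 7.05 CPM. Col9a2 was instead highest in VLMC at 21.4 ± 12.4 CPM (n = 7), with OPC libraries overlapping at 16.7 ± 2.5 CPM. Col22a1, known from tissue junctions, was highest in VLMC at 55.3 ± 38.0 CPM.

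Of the type VI chains, which assemble into beaded filaments around cells, only Col6a1 passed 50 CPM. It was highest in L6IT neurons at 162 ± 33.8 CPM (122 to 236, n = 8), with L6CT at 84.4 ± 19.7 and overlapping libraries. Col6a1 is a short gene of 17.4 kb. Per kilobase of gene body L6IT neurons held 9.33 CPM per kb of Col6a1, while Sst neurons held 1.97 CPM per kb of Col19a1. Whether counts in this assay grow with gene length was not tested, so these values do not rank the genes. The partner chains Col6a2 and Col6a3 were highest in VLMC at 18.3 ± 9.80 and 30.4 ± 15.5 CPM. Over the 20 types, which share libraries, Col6a1 had a rho of 0.54 with Col6a2 and of -0.12 with Col6a3.

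The transmembrane collagens were split between VLMC and neurons. Col13a1, found at cell adhesions, was a VLMC gene at 114 ± 66.9 CPM, with 92.7% of the sum of its means there. Col23a1 held 167, 236 and 672 CPM in VLMC (n = 7) and 101 ± 25.1 CPM in L6b neurons (n = 8), without overlap. Col25a1, whose shed part is found in amyloid plaques, was highest in Vip neurons at 343 ± 124 CPM, with Sst at 210 ± 67.3 CPM and overlapping libraries. Of the remaining members above 50 CPM, Col15a1, a basement membrane multiplexin, was highest in microglia at 81.1 ± 12.6 CPM (n = 5). Vip neurons overlapped at 57.4 ± 14.4 CPM. Col8a1, a network chain of vessel walls, was highest in L4 neurons at 89.1 ± 24.2 CPM (n = 8), with SMC-Peri overlapping at 66.3 ± 47.8 CPM. Col26a1 was highest in chandelier cells (ChC) at 432 ± 116 CPM (n = 3, all DR libraries), with Lamp5 neurons at 247 ± 40.6 CPM (n = 8, NR and DR) overlapping.

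The first comparison asked how rearing in the dark changed collagen transcripts. Most calls fell in excitatory neurons: Col5a1, Col23a1, Col6a2 and Col15a1 were higher in DR, and Col19a1, Col11a1 and Col9a1 were lower. Over all 8 libraries, with genotype as a term, 50 of 381 tested pairs of a member and a cell type were called by the edgeR likelihood ratio test at a Benjamini-Hochberg adjusted p under 0.05, where 5.24% of all gene and type pairs were called. In 34 pairs the member was higher in DR and in 16 lower, beside 2.62% and 2.63% of all pairs. The median log2 fold change of the member pairs was 0.10, and that of all pairs was -0.005. The quasi-likelihood test, which allows for the error of the spread estimate, called 28 of them with 3.3% of all pairs, and DESeq2 called 41 of 262 (6.46% of all pairs).

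By cell type, the likelihood ratio test called 15 of 40 members in L2/3 neurons (15.9% of all genes there), 8 of 39 in L4 (9.6%), 8 of 28 in L6CT (12.5%) and 6 of 25 in L5IT neurons (4.53%). Excitatory types together had 48 of 227 pairs called, where 7.65% of all gene pairs in these types were, and inhibitory types 2 of 88, both in Vip neurons, where 2.01% of all pairs were. Astrocytes had 0 of 28 called by the likelihood ratio test (0.935% of all genes there), while the quasi-likelihood test called 0 and DESeq2 0 (0.883% of all genes there). By the likelihood ratio test 4 members were at an unadjusted p under 0.05, beside 1475 of all 14754 genes there. Among the classes, type VI had 11 of 39 pairs called (28.2%, 10 higher, of which 6 were Col6a2), beside 5.24% of all pairs. Transmembrane collagens had 8 of 34 (23.5%, 6 higher, all Col23a1, and 2 lower). Type IV with 4 of 47 (8.51%, all higher), fibrillar with 8 of 88 (9.09%) and FACIT with 9 of 107 (8.41%, of which 7 pairs were lower) were closer to that share. Of the others, multiplexins had 3 of 15 (20%, all Col15a1), short-chain network collagens 3 of 18 (16.7%, all Col8a1) and the remaining chains 4 of 33 (12.1%).

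**Figure D2:**
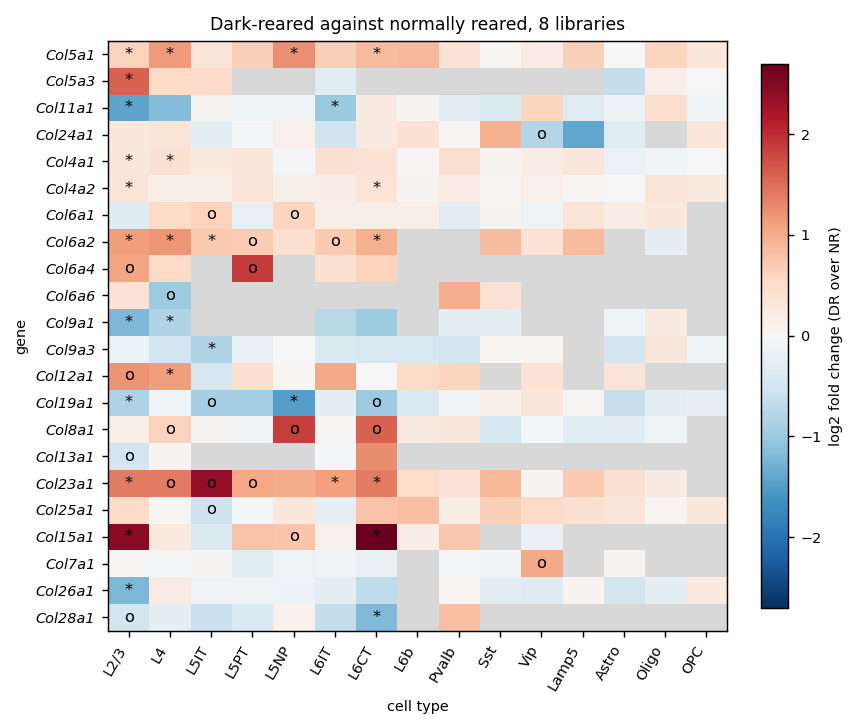
Log2 fold change of DR against NR over all 8 libraries for the 22 members called in at least 1 type (rows) in the 15 types with at least 10 nuclei in every library (columns), with grey for pairs not tested. Circles mark calls by the likelihood ratio test alone and asterisks calls also made by the quasi-likelihood test, and 48 of the 50 marks lie in excitatory types.

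The 250 bases before the annotated start of 2 members that were higher in DR (Col5a1, Col23a1) and 215 or 250 bases of 2 that were lower (Col19a1, Col11a1) are given because these genes carried the rearing comparison by both tests in more than 1 type. They are RefSeq promoter entries of GRCm38.p6, each read 5′ to 3′ on its gene's strand: chr2:27886175-27886424 (+), chr11:51289670-51289919 (+), chr1:24587473-24587687 (-) and chr3:114030290-114030539 (+). Capitals mark the GC box, GGGCGG on either strand.
Col5a1: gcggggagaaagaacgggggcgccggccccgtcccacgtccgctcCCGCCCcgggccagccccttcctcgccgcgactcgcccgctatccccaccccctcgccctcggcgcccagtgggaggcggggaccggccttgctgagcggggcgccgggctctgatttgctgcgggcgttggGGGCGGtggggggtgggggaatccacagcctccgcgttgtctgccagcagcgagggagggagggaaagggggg
Col23a1: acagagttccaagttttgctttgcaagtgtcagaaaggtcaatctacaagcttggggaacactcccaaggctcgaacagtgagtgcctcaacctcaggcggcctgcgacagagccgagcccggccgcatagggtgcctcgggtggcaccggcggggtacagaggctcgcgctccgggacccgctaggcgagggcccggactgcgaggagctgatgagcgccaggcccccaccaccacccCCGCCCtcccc
Col19a1: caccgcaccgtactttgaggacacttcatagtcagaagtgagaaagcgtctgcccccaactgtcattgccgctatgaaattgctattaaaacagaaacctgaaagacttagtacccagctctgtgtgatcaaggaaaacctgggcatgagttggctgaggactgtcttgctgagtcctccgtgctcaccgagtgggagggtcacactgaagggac
Col11a1: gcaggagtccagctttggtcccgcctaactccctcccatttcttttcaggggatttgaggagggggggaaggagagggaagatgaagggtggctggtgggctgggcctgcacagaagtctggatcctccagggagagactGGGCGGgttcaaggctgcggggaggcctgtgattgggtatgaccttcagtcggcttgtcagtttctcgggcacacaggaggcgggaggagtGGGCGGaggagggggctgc
Col5a1 and Col11a1 each held 2 GC boxes, Col23a1 held 1 and Col19a1 held none, at GC contents of 76.4%, 62.4%, 66% and 50.7%.

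Of 38 promoter entries of 35 members, 22 held a GC box in the 250 bases upstream, against 32.7% of 32851 mouse promoters. The AP-1 motif TGANTCA was in 1 (Col6a1) against 6.75% of all, the CRE motif TGACGTCA in none against 1.55%, the TATA box TATAAA in 5 against 12.4%, and the glucocorticoid response element in none against 0.387%. All were searched on both strands, no motif holds another, and a match describes letters, not binding.

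Col5a1 rose in 4 excitatory types, all 4 by both tests, and its fitted fold was above 0 in 14 of the 15 types tested. In L6CT neurons the NR libraries held 184 (GR-Con male), 197 (GR-Con female), 202 (GR-KO male) and 179 CPM (GR-KO female), and the DR libraries 328, 333, 392 and 316 CPM in the same order. Every DR library was above every NR library, and the log2 fold change was 0.85 (SE 0.10, adjusted p = 1.32e-13 by edgeR's likelihood ratio test and 0.00236 by its quasi-likelihood test). In L4 neurons the values were 14, 12.2, 11.6 and 11.4 CPM in NR and 20.4, 22.8, 32.7 and 32.0 CPM in DR, again without overlap, for a log2 fold change of 1.15. It was 1.23 in L5NP and 0.63 in L2/3 neurons.

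Col23a1 rose in 6 excitatory types, 3 of them by both tests, and was above 0 in all 14 types tested. In L2/3 neurons it held 24.3, 25.8, 43.7 and 20.9 CPM in NR and 77.5, 74.3, 93.7 and 56.2 CPM in DR, a log2 fold change of 1.4 (SE 0.24, adjusted p = 4.07e-07, 0.0101 by the quasi-likelihood test of edgeR). The groups did not overlap, and the NR GR-KO male library was the highest of the NR libraries. In L6CT neurons it held 15.1, 15.9, 22.1 and 19.8 CPM in NR and 53.1, 48.2, 61.5 and 24.5 CPM in DR, a log2 fold change of 1.37, with DR GR-KO female close above the NR range. In L5IT neurons the fold change of 2.36 rested on overlapping libraries, and its adjusted p of 0.0306 became 0.125 with the quasi-likelihood test.

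Col6a2 rose in 6 excitatory types as well, from a low level, and 4 of the 6 calls were made by both tests. In L6CT neurons it held 8.19, 6.36, 8.76 and 6.36 CPM in NR and 10.7, 20.2, 12.2 and 14.5 CPM in DR (log2 fold change 0.96, SE 0.21), with every DR library above the NR libraries. Its partner Col6a1 rose in L5IT neurons by 0.62 and in L5NP neurons by 0.58 on the log2 scale by the likelihood ratio test, and not by the quasi-likelihood test of edgeR (adjusted p = 0.0503 and 0.0522).

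Col15a1 had the 2 largest log2 fold changes among the called pairs, in L6CT and L2/3 neurons, where it is low, while L6b neurons held 19.7 ± 5.08 and L5IT neurons 11.6 ± 3.58 CPM. In L6CT neurons NR libraries held 0.686, 1.99, 2.11 and 1.15 CPM and DR libraries 5.63, 10.7, 13.1 and 7.67 CPM, a log2 fold change of 2.64 (SE 0.37, adjusted p = 1.82e-10, 0.00672 by the quasi-likelihood test of edgeR) without overlap. It also rose in L2/3 neurons, by 2.44, and in L5NP neurons by 0.75, the latter by the likelihood ratio test alone (0.088 by the quasi-likelihood test). Col12a1 rose in L4 neurons from 2.71, 3.61, 4.04 and 3.20 CPM in NR to 7.88, 7.61, 6.92 and 6.34 CPM in DR, a log2 fold change of 1.12 without overlap. Neither Col15a1 nor Col12a1 was called in L5IT neurons over all libraries. Within GR-Con alone both were called lower in DR there, with log2 fold changes of -0.78 for Col15a1 and -0.94 for Col12a1. That call of Col12a1 held under every alternative.

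Smaller differences in the same direction were found for the basement membrane pair. Col4a1 rose by 0.31 in L2/3 and 0.41 in L4 neurons and Col4a2 by 0.35 in L2/3 and 0.36 in L6CT neurons, each also by the quasi-likelihood test. In L2/3 neurons Col4a2 held 60.5, 60.9, 65.7 and 63.9 CPM in NR and 70.8, 83.5, 92.9 and 74.1 CPM in DR, without overlap. Col8a1 was called higher in 3 types by the likelihood ratio test and in none by the quasi-likelihood test.

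Col19a1 fell in 4 excitatory types, 2 of them by both tests. In L2/3 neurons it held 222, 184, 191 and 222 CPM in NR and 131, 119, 92.5 and 119 CPM in DR, so that no DR library reached the NR range (log2 fold change -0.83, SE 0.13, adjusted p = 6.19e-08, 0.00589 by the quasi-likelihood test of edgeR). It fell by 1.49 on the log2 scale in L5NP and by 0.90 in L5IT neurons (0.0503 by the quasi-likelihood test), and in L6CT neurons the libraries overlapped, 42.2, 39.7, 26.6 and 35.0 against 11.5, 33.6, 10.3 and 18.0 CPM. In Sst and Pvalb neurons, where it is most abundant, it was not called.

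Col11a1 fell in L2/3 neurons from 20.6, 11.5, 17.7 and 12 CPM in NR to 7.50, 5.85, 4.35 and 5.6 CPM in DR (log2 fold change -1.42, SE 0.22) and in L6IT neurons by 1.01, both without overlap and by both tests. Col9a1 fell by 1.21 in L2/3 and by 0.80 in L4 neurons, likewise by both, from a low level. Without nuclei that held Tshz2, L2/3 neurons had 0.968 to 1.34 CPM in NR and 0.284 to 0.646 in DR libraries. L4 neurons then had 2.78 to 4.25 CPM in NR and 1.96 to 2.46 in DR. Named after their values were seen, Col26a1 fell in L2/3 neurons by 1.21, Col9a3 in L5IT neurons by 0.81, and Col24a1 in Vip neurons by 0.79, the last by the likelihood ratio test alone (0.0978 by the quasi-likelihood test).

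**Figure D3:**
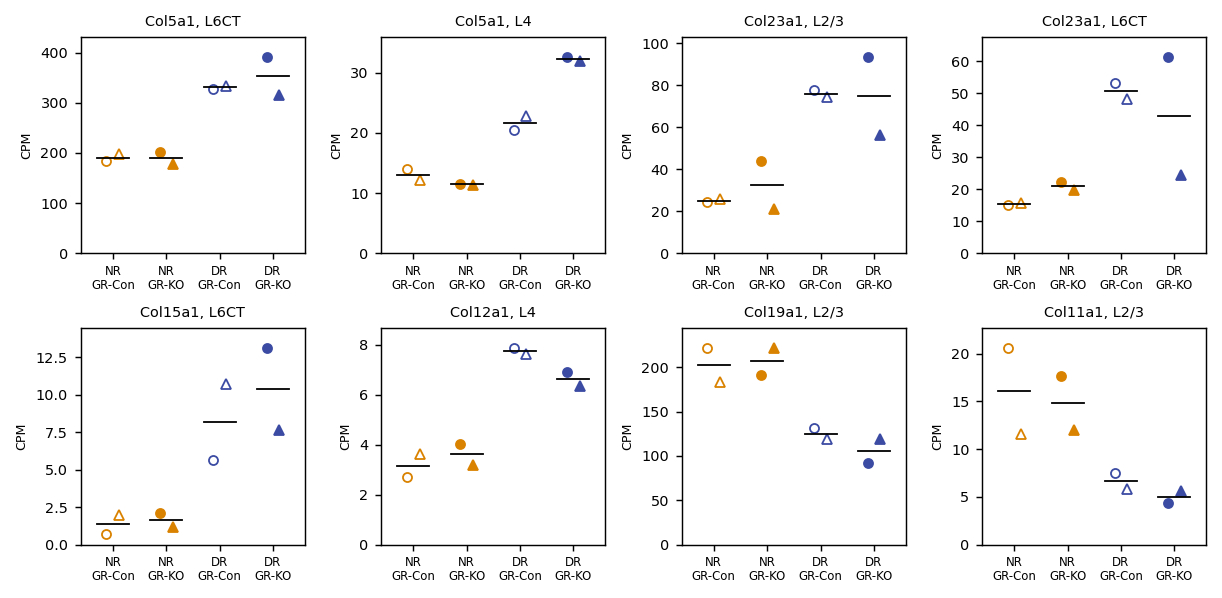
CPM in each library for 8 pairs of a collagen gene and a neuron type, with open symbols for GR-Con, filled for GR-KO, circles for males, triangles for females, orange for NR, blue for DR, and lines at group means. In the Col5a1 L6CT panel DR libraries sit between 316 and 392 CPM above NR libraries between 179 and 202, and in the Col19a1 L2/3 panel DR libraries sit between 92.5 and 131 CPM below NR libraries between 184 and 222.

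The number of member pairs called over all libraries depended on single libraries, being 31 without NR GR-Con male (2.84% of all pairs), 78 without NR GR-KO male (5.37%) and 33 without DR GR-KO male (2.35%). Of the 34 named pairs, 20 kept their call under every alternative that gave a value, among them all 4 of Col5a1 and both of Col11a1 and Col9a1.

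Some layer markers moved with these pairs, and others overlapped between rearings. Cux2, the marker of L2/3 neurons, overlapped in L2/3 nuclei, at 306 to 419 CPM in NR and 298 to 442 in DR libraries. Rspo1, a marker of L4 neurons, was at 4.85, 4.63, 2.84 and 5.13 CPM in L4 nuclei of NR libraries and at 1.55, 1.05, 2.10 and 2.59 CPM in those of DR libraries, without overlap, and its part in the L4 results was not tested. Rorb, the other L4 marker, overlapped in L4 nuclei, at 1280 to 2023 CPM in NR and 1079 to 1406 in DR. Syt6, a marker of L6CT neurons, was at 81.5, 98.9, 84.1 and 96.0 CPM in L6CT nuclei of NR libraries. In those of DR libraries it was at 102, 243, 214 and 206 CPM, without overlap. Foxp2, the other L6CT marker, overlapped, and the part of Syt6 in the L6CT results was not tested. In L2/3 nuclei the summed OPC markers were 1.12 to 1.71 CPM in NR and 0.799 to 1.07 in DR. Those of SMC-Peri were 2.85 to 3.28 and 1.61 to 2.43 CPM, and the other summed lists overlapped. Tshz2, fixed as the marker of L5NP neurons, was at 5.86, 4.16, 154 and 6.09 CPM in L2/3 nuclei of NR libraries and at 158, 101, 240 and 144 CPM in those of DR libraries, so that NR GR-KO male lay among the DR libraries. A Tshz2 UMI was found in 4.66% to 18.3% of L2/3 nuclei in NR and in 17% to 33.9% in DR libraries. As an alternative chosen after seeing the data, excitatory nuclei with a Tshz2 UMI were left out of every excitatory type but L5NP, which gave 47 calls in place of 50. Col23a1 in L2/3 neurons then held 24.6, 26.5, 36.5 and 21.1 CPM in NR and 73.6, 74.2, 96.2 and 54.0 CPM in DR. Over all comparisons 98 of 106 named pairs were still called, and the 3 of this comparison that were not are Col6a2 in L5PT and Col8a1 in L4 and L6CT neurons.

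Within each genotype the same question was asked with 2 libraries against 2, and the comparisons share no library with each other but each shares its libraries with the one above. In GR-Con, 54 of 365 member pairs were called (2.25% of all pairs), 39 higher (1.41%) and 15 lower (0.84%), and the quasi-likelihood test called 13 (0.495%). In GR-KO, 41 of 376 were called (3.66%), 22 higher (1.69%) and 19 lower (1.96%), and the quasi-likelihood test called 10 (0.857%). Of the 22 higher calls in GR-KO, 9 were in VLMC. In excitatory types GR-Con had 37 higher and 12 lower calls among 218 member pairs, and GR-KO 13 higher and 14 lower among 204. The share of all genes by direction was not taken for excitatory types alone. Over all types the calls of all genes also leaned higher in GR-Con and lower in GR-KO, by the shares above. The median log2 fold change of the member pairs was 0.18 in GR-Con and 0.05 in GR-KO, and that of all pairs -0.001 and -0.008. Leaving out DR GR-Con male gave 102 calls in GR-Con (5.2% of all pairs) and NR GR-Con male or female 25 and 27 (0.75% and 0.9%). Leaving out NR GR-KO male gave 80 in GR-KO (6.15%) and DR GR-KO male or female 16 and 18 (0.826% and 1.33%), so the calls of all genes moved as well.

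The pairs named within GR-Con included Col14a1 in L2/3, Col24a1 in Vip and Col11a1 in Pvalb neurons. Col14a1 in L2/3 neurons held 0.620 and 0.373 CPM in NR GR-Con (male, female) and 6.81 and 4.07 in DR GR-Con (log2 difference 3.39, SE 0.41, adjusted p = 3.8e-14, 0.0222 by the quasi-likelihood test of edgeR), while the GR-KO libraries overlapped, 7.67 and 0.691 against 3.83 and 1.28 CPM. NR GR-KO male, the library with high Tshz2, was also the highest for Col14a1. Col24a1 in Vip neurons, where it is next most abundant after L5NP, held 107 and 99.9 CPM in NR GR-Con and 46.4 and 50.9 in DR GR-Con (log2 difference -1.09, SE 0.13, quasi-likelihood adjusted p = 0.00123 by edgeR). Col11a1 in Pvalb neurons held 127 and 133 CPM in NR GR-Con and 93.6 and 89.0 in DR GR-Con (log2 fold change -0.51). It was not called in Pvalb neurons in GR-KO or over all libraries, and the GR-Con call was not kept under every alternative.

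Vascular cells could be compared between rearings within GR-KO, since DR GR-Con female had too few of them. In VLMC, 10 of 21 members were called (19.9% of all genes there), 9 higher in DR (6.94%) and 1 lower (13%), against 7 by the quasi-likelihood test (15%) and 3 in DESeq2 (7.2%). The libraries held 20 (NR male), 47 (NR female), 53 (DR male) and 65 VLMC nuclei (DR female), with medians of 11021, 7925, 3656 and 3907 UMIs per nucleus. Col4a6 held 141 and 226 CPM in NR and 595 and 511 in DR (log2 fold change 1.31, SE 0.36, adjusted p = 0.00228, 0.0219 by the quasi-likelihood test of edgeR), and Col4a5 188 and 223 against 519 and 451 CPM (0.97). Col1a2 held 160 and 120 CPM in NR and 433 and 274 in DR (1.08), and Col23a1 196 and 171 against 672 and 487 CPM (1.4). None of these 4 overlapped, and Col1a1, the other type I chain, was not called, with 52.6 and 50.2 against 85.7 and 70.1 CPM.

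Col19a1 was the member that was lower in VLMC, with 102 and 58.5 CPM in NR GR-KO and 18.0 and 16.7 in DR GR-KO (log2 fold change -2.39, SE 0.55). It was also lower in DR GR-KO in astrocytes (9.13 and 8.55 against 3.66 and 4.17 CPM), oligodendrocytes (6.6 and 10.0 against 3.84 and 4.25) and endothelial cells (138 and 65.2 against 19.0 and 14.7), the call in astrocytes being the only one of these 3 also made by the quasi-likelihood test. The summed excitatory neuron markers moved with it, from 274 and 403 CPM in NR to 18.0 and 103 in DR in VLMC, from 66.0 and 59.1 to 43.8 and 41.7 in astrocytes, from 50.6 and 52.4 to 28.7 and 28.7 in oligodendrocytes, and from 281 and 326 to 209 and 216 in endothelial cells. The summed inhibitory neuron markers, those of the cells with the most Col19a1, overlapped between rearings in VLMC (47.0 and 13.9 against 27.1 and 16.7 CPM) and endothelial cells (55.6 and 22.5 against 26.6 and 49.1) and were lower in DR in astrocytes (23.0 and 25.2 against 12.6 and 11.1) and oligodendrocytes (15.4 and 13.5 against 11.1 and 8.86). The part of either list in the Col19a1 result was not tested.

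The VLMC markers themselves moved in the same comparison. Their sum was 689 and 828 CPM in NR GR-KO and 1984 and 1462 in DR GR-KO, a log2 ratio of means of 1.18, and the summed astrocyte markers in VLMC nuclei went from 863 and 926 to 2079 and 2173 CPM. Given as a percentage of the summed VLMC markers, the libraries of 7 of the 10 called members overlapped between rearings, and those of Col19a1, Col23a1 and Col4a6 did not. Col23a1 was 28.5% and 20.7% of that sum in NR and 33.9% and 33.3% in DR. Leaving out DR GR-KO male ended the calls of Col11a1, Col1a2 and Col4a5 in VLMC, while those of Col19a1 and Col23a1 held under every alternative. In NR, where both genotypes had enough VLMC, GR-KO against GR-Con gave 0 of 18 members called by the likelihood ratio test of edgeR (0% of all genes there), while the quasi-likelihood test gave 0 and DESeq2 0. By the likelihood ratio test 1 member was at an unadjusted p under 0.05, beside 205 of all 6694 genes there.

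**Figure D4:**
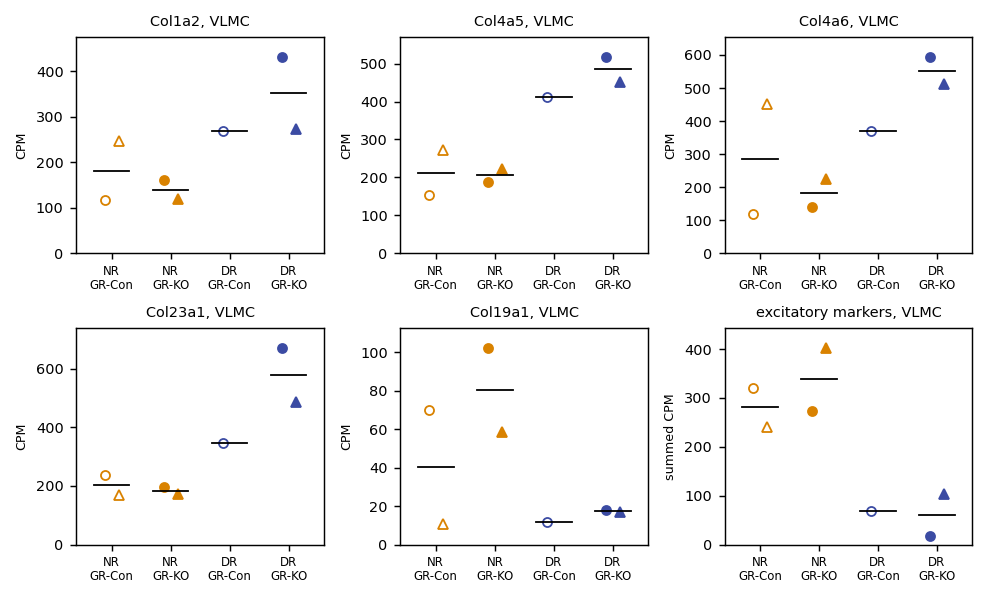
CPM in VLMC per library for 5 collagen genes and for the summed excitatory neuron markers, by group, with open symbols for GR-Con, filled for GR-KO, circles for males and triangles for females, and lines at group means. The DR GR-Con female library with 3 nuclei is left out, the filled DR symbols of Col1a2, Col4a5, Col4a6 and Col23a1 lie above the filled NR symbols, and for Col19a1 and the neuron markers they lie below.

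The second comparison asked what the loss of GR in astrocytes changed. Few member pairs were called, although by the likelihood ratio test their share was above that of all pairs. It was 2.93% against 0.804% in NR and 2.55% against 0.513% in DR. The clearest was Col5a3 in astrocytes, which was lower in GR-KO under both rearings. In NR, 11 of 376 member pairs were called (0.804% of all pairs), 9 higher (0.491%) and 2 lower (0.313%), and the quasi-likelihood test called 2 (0.361%). In DR, 9 of 353 were called (0.513%), 5 higher (0.319%) and 4 lower (0.194%), and the quasi-likelihood test of edgeR called 0 (0.00431%). By that test 48 member pairs were at an unadjusted p under 0.05, beside 14824 of all 208905 pairs, and DESeq2 called 5 (0.487%). With the 8 libraries in 1 fit and a term for rearing, 4 of 381 were called (0.4%), all lower, and 1 by the quasi-likelihood test (0.196%). The counts were 3, 6, 20 and 41 in NR without GR-Con male, GR-Con female, GR-KO male and GR-KO female (0.389%, 0.476%, 1.23% and 2.16% of all pairs). In DR they were 65 when GR-Con male was left out (3.23%), 18 when GR-Con female was (2.05%) and 1 when GR-KO female was (0.116%).

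The 250 bases before the start of Col5a3 (RefSeq GRCm38.p6, chr9:20815068-20815317, minus strand, GC content 62.8%) are given because its calls in NR and over all libraries were made by both tests. Capitals mark its 2 GC boxes, and it held no match to the glucocorticoid response element above.
Col5a3: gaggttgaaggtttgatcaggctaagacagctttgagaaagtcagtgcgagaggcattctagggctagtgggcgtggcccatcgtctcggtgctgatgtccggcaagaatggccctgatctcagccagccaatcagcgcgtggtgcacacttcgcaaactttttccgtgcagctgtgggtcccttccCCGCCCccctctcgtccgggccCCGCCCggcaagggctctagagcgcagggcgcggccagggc

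In astrocytes, Col5a3 held 27.7 and 29.7 CPM in NR GR-Con (male, female), 13 and 10.7 in NR GR-KO, 13.9 and 29.0 in DR GR-Con and 5.13 and 6.82 in DR GR-KO. Within each rearing both GR-KO libraries lay below both GR-Con libraries, and the 2 DR GR-Con libraries were far apart. The log2 fold change was -1.35 in NR (SE 0.18, adjusted p = 3.63e-11, 0.00219 by the quasi-likelihood test of edgeR), -1.80 in DR (SE 0.42, adjusted p = 0.00454, 0.374 by the quasi-likelihood test) and -1.55 over all libraries (SE 0.24, adjusted p = 1.32e-08, 0.0049 by the quasi-likelihood test). The calls over all libraries and in NR held under every alternative, and the call in DR was lost without DR GR-KO male or female. Leaving out a library within 1 rearing sets 1 library against 2, and the lone library is then taken to vary like the pair. Summed markers of oligodendrocytes in astrocyte nuclei were higher in GR-KO within each rearing, without overlap. They were 163 and 129 CPM in NR GR-KO against 113 and 92.0 in NR GR-Con, and 89.3 and 83.5 against 78.3 and 60.6 in DR. Those of OPC, which also hold Col5a3, were 3.11 to 5.68 CPM in GR-Con and 3.84 to 7.16 in GR-KO and overlapped within each rearing. The part of both lists in the Col5a3 result was not tested.

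In astrocytes 3 of 28 members were called in NR (7.11% of all genes there) and 3 of 28 over all libraries (4.79%). Median UMIs per astrocyte nucleus were 8662 and 12124 in NR GR-KO and 6267 and 5587 in NR GR-Con. Col27a1 was higher in NR GR-KO, with 22.5 and 19.0 CPM against 13.1 and 9.86 in NR GR-Con (log2 difference 0.78, SE 0.20, adjusted p = 0.00275, 0.0398 by the quasi-likelihood test of edgeR). The DR libraries overlapped, 16.7 and 15.7 CPM in GR-KO against 12 and 31.7 in GR-Con. Col24a1 was called higher in NR GR-KO by the likelihood ratio test, at 1.78 and 2.5 against 0.411 and 0.896 CPM (0.126 by the quasi-likelihood test). In the same astrocyte nuclei the summed excitatory neuron markers were 66.0 and 59.1 CPM in NR GR-KO and 41.0 and 39.3 in NR GR-Con, and the inhibitory ones 23.0 and 25.2 against 15.5 and 15.7 CPM, without overlap. Col24a1 is highest in neurons, and the part of these markers in its result was not tested. Over all libraries Col1a2 was lower by 1.03 on the log2 scale and Col7a1, the anchoring fibril collagen, by 0.72, with quasi-likelihood adjusted p of 0.0822 and 0.119 by edgeR. Summed VLMC markers, those of the type with the most Col1a2, were higher in astrocyte nuclei of GR-KO. They were 2.33 to 4.39 CPM there against 0.675 to 1.78 in GR-Con, and their part in the Col1a2 result was not tested. In excitatory neurons, Col6a4 was higher in NR GR-KO in L2/3 (7.07 and 3.56 against 1.36 and 2.06 CPM) and L5PT neurons (3.47 and 1.48 against 0.159 and 0.547 CPM), by the likelihood ratio test alone (0.838 and 0.297 by the quasi-likelihood test). In both types the highest value was that of NR GR-KO male, the library with high Tshz2 in L2/3 nuclei. NR GR-KO female held only 59 L5PT nuclei, where the other libraries held 384 to 504.

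**Figure D5:**
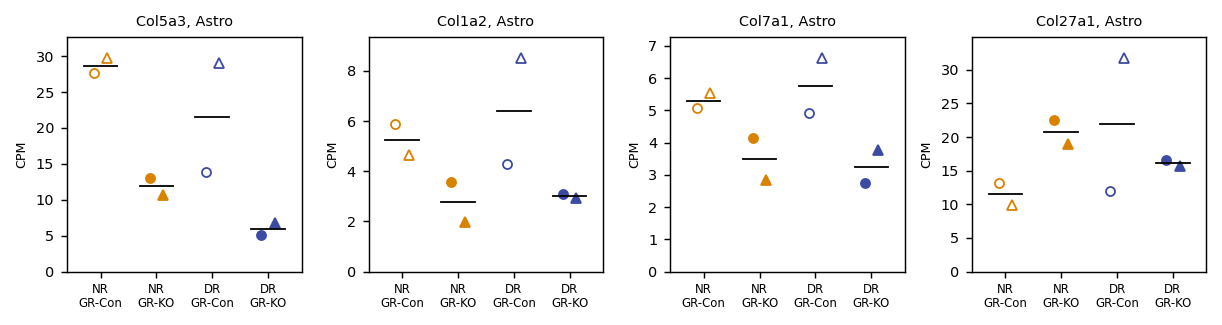
CPM in astrocytes per library for Col5a3, Col1a2, Col7a1 and Col27a1 by group, with open symbols for GR-Con, filled for GR-KO, circles for males, triangles for females and lines at group means. For Col5a3 the filled symbols lie at 13 and 10.7 CPM in NR and at 5.13 and 6.82 CPM in DR, below the open symbols of the same rearing.

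Whether the genotype difference itself changed with rearing was tested as an interaction over all libraries, and 3 of 381 member pairs were called by the likelihood ratio test (0.181% of all pairs). The quasi-likelihood test of edgeR called 0 (0.00276%), with 48 at an unadjusted p under 0.05, beside 13173 of all 217689 pairs. DESeq2 called 4 (0.162%). The 3 pairs of the likelihood ratio test were Col5a1 and Col15a1 in L4 and Col12a1 in L6IT neurons, and the call of Col5a1 was lost without nuclei that held Tshz2 (adjusted p = 0.118 by the likelihood ratio test of edgeR). The pairs called by DESeq2 were not the same set. They included Col5a1 in L4 (adjusted p = 0.0124 by DESeq2) and in L2/3 neurons (0.0356), the latter at 0.103 by the likelihood ratio test.

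Genes that modify, process, carry or bind collagen were followed as a list drawn up by function. Over all libraries, DR against NR gave 37 of 504 pairs called, 30 higher and 7 lower, and 22 by the quasi-likelihood test. These were 7.34% of the list, 5.95% higher and 1.39% lower, near the 5.24% of all pairs in number (2.62% higher, 2.63% lower), and 4.37% against 3.3% by the quasi-likelihood test. Colgalt1, which adds galactose to hydroxylysine of collagen, was higher in DR in 6 types (0.56 on the log2 scale in L2/3 neurons, SE 0.12), and its relative Colgalt2 in 3 (1.39 in L2/3, 1.62 in L6CT and 1.33 in L6IT neurons). Adamts2 and Adamts3, proteases that remove the amino-terminal propeptide of fibrillar collagens, were higher in 3 and 5 types, Adamts2 by 2.04 (SE 0.36) in L6CT neurons at means of 49.6 ± 21.3 CPM in DR and 11.9 ± 2.78 in NR (n = 4 each). Bmp1, which removes the carboxy-terminal propeptide, was higher in L6IT neurons by 0.59. Lair1, an inhibitory collagen receptor, was lower in L2/3 neurons, at 5.36 ± 1.24 against 10.7 ± 1.76 CPM (log2 fold change -1.0, SE 0.16).

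With all 8 libraries in the fit, the genotype difference gave 3 of 504 pairs of that list called, all lower in astrocytes and all 3 also by the quasi-likelihood test, which is 0.595% of the list against 0.4% of all pairs, and in astrocytes 7.69% against 4.79%. Sparc, a matrix glycoprotein that binds collagen, was at 8.52 ± 4.46 CPM in GR-KO and 28.3 ± 13.7 in GR-Con (n = 4 each, log2 fold change -1.75, SE 0.37). P4ha2, a subunit of prolyl hydroxylase, was lower by 0.77 and Lair1 by 0.51 on the log2 scale. Between rearings, 17 of 481 pairs of the list were called within GR-Con (3.53%, against 2.25% of all pairs) and 28 of 507 within GR-KO (5.52% against 3.66%). Between genotypes, 3 of 512 were called within NR (0.586% against 0.804%) and 1 of 472 within DR (0.212% against 0.513%), both below the share of all pairs.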

How the data were processed

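Nuclei came from V1 of 8 mice, 2 per group. The authors aligned reads to mm10 with an added eGFP sequence in Cell Ranger 8.0.1, removed nuclei by gene number and by predicted doublets, clustered in Seurat 5.3.0 and deposited 1 table of UMI counts with a cell type and library for each nucleus. The counts are not normalized. They were summed here per library and cell type (Python 3.11.15, pandas 2.3.3) and divided by all UMIs of that sum to give CPM, with at least 10 nuclei required. Tests were edgeR 4.0.16 likelihood ratio tests (R 4.3.3, two-sided) after its default filter and TMM, adjusted by Benjamini-Hochberg within a type over all genes, and the procedure was tested on simulated data. With 2 animals a group, p-values rest on a spread between animals that edgeR estimates for each gene with the help of all genes. The likelihood ratio test takes that estimate as known and can give too many calls. Alternatives were the edgeR quasi-likelihood test, DESeq2 1.42.0, other size factors, no filter, at least 20 nuclei, a sex term, all libraries in each fit, each library left out, and nuclei without Tshz2.

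Members and lists were chosen with earlier results of these data known. Members were given in full where a mean reached 50 CPM in a type with enough nuclei in each library. Named after their values were seen are 9 members that reached it only in other types: Col1a1, Col1a2, Col3a1, Col4a5, Col4a6, Col5a2, Col13a1, Col22a1 and Col27a1. In comparisons, members were named when called in 2 types, by both edgeR tests or in astrocytes, up to 10 each. Gene positions and lengths are from GENCODE vM21 on GRCm38, for 44 of 44 members, with lengths of 7.11 to 468 kb, and promoters are from RefSeq GRCm38.p6. Bases after the start opened a GENCODE transcript for 35 of 38 promoter entries. Intervals between libraries include sampling, and depth limits the rarest types, at 51097 to 323619 UMIs in SMC-Peri, 158140 to 225566 in ChC and 191053 to 717380 in VLMC.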

Additional observations from a re-analysis of the deposited data

Results flagged for a closer look

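For 3 pairs the genotype difference in NR differed from that in DR by the likelihood ratio test of the interaction in edgeR, and none of the 3 did so by its quasi-likelihood test. Col5a1 in L4 neurons had a log2 difference of -0.81 (SE 0.19, adjusted p = 0.0168, 0.459 by the quasi-likelihood test and 0.118 by the likelihood ratio test without nuclei that held Tshz2), with 14 and 12.2 CPM in NR GR-Con, 11.6 and 11.4 in NR GR-KO, 20.4 and 22.8 in DR GR-Con and 32.7 and 32.0 in DR GR-KO. Col15a1 in L4 neurons had -1.05 (SE 0.26, adjusted p = 0.0351, 0.459 by the quasi-likelihood test of edgeR), with 7.55 and 7.02 CPM in NR GR-Con, 6.62 and 6.77 in NR GR-KO, 6.83 and 5.23 in DR GR-Con and 10.6 and 11.6 in DR GR-KO. Col12a1 in L6IT neurons had 3.16 (SE 0.76, adjusted p = 0.0291, 0.906 by the quasi-likelihood test of edgeR), resting on 0.126 and 0.289 CPM in NR GR-Con against 1.08 to 2.32 CPM in the other 6 libraries.

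In 4 pairs the 2 libraries of every group separated one way under one condition and the opposite way under the other. For Col15a1 in L4 neurons DR lay below NR in GR-Con and above it in GR-KO, by 4.40 CPM between the means of the GR-KO groups. For Col19a1 in oligodendrocytes DR lay above NR in GR-Con and below it in GR-KO, by -4.26 CPM, beside the excitatory neuron markers given above for these nuclei. For Col5a1 in L6IT neurons DR lay above NR in GR-Con and below it in GR-KO, by -0.775 CPM. For Col24a1 in astrocytes GR-KO lay above GR-Con in NR and below it in DR, by -0.119 CPM. Except for Col15a1, whose interaction is given above, these were flagged without a test of the difference that passed, and a separation of 2 libraries against 2 was not tested as such. No group had the 4 samples that the test for an outlying sample needs.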

How the results depend on the processing

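No paired analysis was possible because the library names in the deposited table carry a sex and no replicate number, so sex was used as a term instead. Of 1377 values of named pairs under alternatives, 1088 kept their direction and call, 289 kept their direction and lost the call, and none reversed. The share of all pairs called moved too, given here for the quasi-likelihood test, DESeq2, the sex term and all libraries in 1 fit. Between genotypes 0.804% became 0.361%, 0.508%, 1.84% and 0.424% in NR and 0.513% became 0.00431%, 0.487%, 1.16% and 0.347% in DR. Between rearings 2.25% became 0.495%, 2%, 3% and 1.77% in GR-Con and 3.66% became 0.857%, 3.61%, 6.18% and 2.73% in GR-KO. For the interaction, 0.181% became 0.00276%, 0.162% and 0.59% with the first 3. The number of collagen pairs called moved by more than 1.5 times as follows. Between genotypes in NR, 11 became 2 with the quasi-likelihood test, 2 with DESeq2, 24 with the sex term, 5 with all libraries in the fit and 3 to 41 with 1 library left out. In DR, 9 became 0, 5, 15, 3 and 1 to 65 in the same order. For DR against NR in GR-Con, 54 became 13 with the quasi-likelihood test and 25 to 102 with 1 library left out. In GR-KO, 41 became 10 with the quasi-likelihood test, 24 with DESeq2, 71 with the sex term, 19 with all libraries and 16 to 80 with 1 left out. Over all libraries, the 4 genotype calls became 1 with the quasi-likelihood test, 1 with DESeq2 and 1 to 9 with 1 library left out (1 without NR GR-Con male or DR GR-KO male, 2 without DR GR-KO female, 9 without DR GR-Con male), and the 50 rearing calls became 28 with the quasi-likelihood test and 31 to 78 with 1 library left out. The 3 interaction calls became 0 with the quasi-likelihood test, 9 with the sex term and 0 to 16 with 1 library left out. In each of these the cause was not tested, and within 1 genotype or rearing a left-out library leaves 1 against 2, with the spread taken from the pair. Other size factors, no filter on low counts, at least 20 nuclei and leaving out nuclei with Tshz2 kept every count within 1.5 times. With 2 libraries a group the likelihood ratio test depends on an estimate of the spread from few values, and levels rest on few nuclei in ChC (10 to 14 in the libraries used), SMC-Peri (14 to 53) and VLMC (20 to 104).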
